A study of Mus musculus with 63 samples.

Results

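The kainate receptor subunits are described here across hippocampal regions, genotypes, denervation and synaptopodin coIP. The members are the 5 genes Grik1, Grik2, Grik3, Grik4 and Grik5, chosen by their symbols and not by their values, of 55291 gene symbols in the count tables. Each of the 5 passed the filter on low counts in every comparison. Entorhino-hippocampal slice cultures of mice were prepared between postnatal day 3 and 5 and matured for at least 18 days in vitro, from C57BL/6J mice (Synpo+/+) or from the line B6.129-Synpotm1Mndl/Dllr (Synpo-/-), which lacks synaptopodin, a protein of the spine apparatus. For denervation, the perforant path of some cultures was cut with a scalpel (entorhinal cortex lesion, ECL). The authors give 3 days between lesion and collection for the regional libraries and no interval for the coIP lysates.

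In the regional experiment, 1 dentate gyrus (DG) or 1 CA3 area of 1 culture was dissected for each library. There were 4 Synpo+/+ DG control, 7 Synpo+/+ DG ECL, 2 Synpo+/+ CA3 control and 3 Synpo+/+ CA3 ECL libraries. The Synpo-/- genotype was represented by 7 DG control, 4 DG ECL, 6 CA3 control and 6 CA3 ECL libraries. In the coIP experiment, 5 or 6 cultures were pooled per lysate, and RNA was sequenced from an anti-synaptopodin precipitate (coIP) and from an aliquot of the precleared lysate (input). It held 5 lysates of Synpo+/+ control, 5 of Synpo+/+ ECL and 2 of Synpo-/- cultures, the last serving as the control for unspecific pull-down. The labels of the Synpo-/- lysates give no lesion state. Dissected areas and whole-culture lysates are mixtures of cells, so fewer cells of a type and less RNA per cell cannot be told apart.

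Kainate receptors are ionotropic glutamate receptors built from 4 subunits. Grik1, Grik2 and Grik3 encode GluK1, GluK2 and GluK3, which bind glutamate with lower affinity and can form channels without other subunits. Grik4 and Grik5 encode the high-affinity subunits GluK4 and GluK5, which need a partner of the first kind to reach the cell surface. In the hippocampus, kainate receptors are best known from the mossy fiber synapse, where the axons of dentate granule cells meet the proximal dendrites of CA3 pyramidal cells and where receptors act on either side of the cleft.

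Total counts ranged from 14055930 to 46043990 in the 39 regional libraries and from 11601154 to 53682143 in the 24 coIP and input libraries. A single member was covered by 67 to 3636 counts in a regional library and by 70 to 4505 counts in a coIP or input library. Levels are given as normalized CPM, that is CPM on library sizes scaled by TMM within each experiment. Before the results, 1 library has to be set apart. In the library labelled Synpo+/+ DG ECL replicate 5, Prox1, a transcription factor that marks granule cells, was at 15.5 normalized CPM, against 169.6 to 216.6 in the other 6 libraries of its group and 12.7 to 17.2 in Synpo+/+ CA3 ECL. Results that rest on it are given with and without it. In Synpo-/- CA3 control replicate 1, Prox1 was at 44.0 against 15.6 to 18.7 in the other 5 libraries. Reads of Synpo did not separate the genotypes in the direction of the labels. In control DG the gene was at 41.0 to 69.3 normalized CPM in Synpo-/- and at 19.1 to 24.5 in Synpo+/+, so the genotype rests on the labels alone. The regional labels were checked with 5 granule cell and 5 CA3 pyramidal cell markers. The summed level of the granule cell markers was 167 to 284 normalized CPM in DG libraries, other than Synpo+/+ DG ECL replicate 5 at 33.7, and 26.2 to 82.5 in CA3 libraries. That of the CA3 markers was 208 to 356 in CA3 libraries and 61.6 to 141 in DG libraries other than replicate 5, which was at 354. For 3 CA1 markers the sum was 12.4 to 58.3 (median 19.0) in Synpo+/+ DG control and at most 27.2 in the other DG groups. In CA3 libraries that sum reached at most 21.2, and the source of the value of 58.3 was not tested.

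Between genes, levels can be compared only per length of exon. In the regional libraries Grik2 was the most abundant subunit in 39 of 39 libraries, with a median of 7.58 normalized CPM per kb (range 5.73 to 9.07). Grik1 followed at 2.76 (1.89 to 3.58), Grik5 at 2.64 (1.65 to 4.29) and Grik4 at 2.10 (1.15 to 4.84). Grik3 was lowest at 0.716 (0.363 to 1.27) and lay below each of the other 4 subunits in 39 of 39 libraries. The rank of the middle 3 subunits depended on the region. In DG libraries Grik1 exceeded Grik4 in 21 of 22, whereas in CA3 libraries it did so in 1 of 17. Grik4 exceeded Grik5 in 14 of 17 CA3 libraries and in 1 of 22 DG libraries, the latter being Synpo+/+ DG ECL replicate 5.

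**Figure D1:**
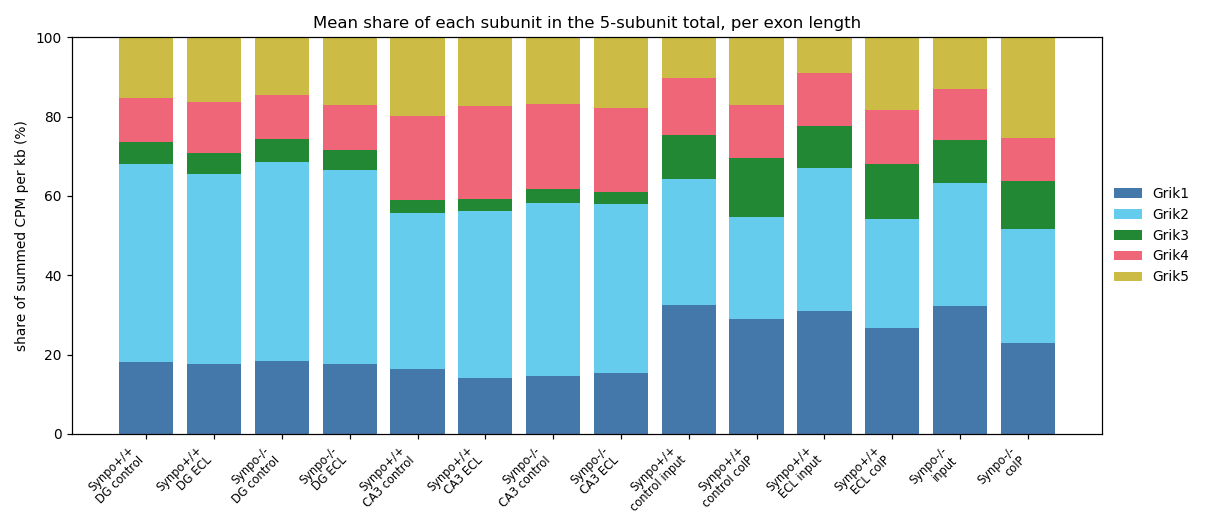
Mean share of each subunit (y axis, percent) in the summed normalized CPM per kb of exon of the 5 genes, for the 8 regional groups and the 6 input and coIP groups (x axis). Grik4 takes 21.2 to 23.6% in the 4 CA3 groups and at most 12.8% in the 4 DG groups, and Grik5 takes a larger share in each coIP group than in its input.

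Expressed as a share of the 5-subunit total per kb, Grik4 made up 21.2% ± 3.79 (SD, n = 2) of Synpo+/+ CA3 control and 10.997% ± 1.85 (n = 4) of Synpo+/+ DG control. In Synpo-/- controls its share was 21.5% ± 3.24 (n = 6) in CA3 and 11.03% ± 1.39 (n = 7) in DG. Grik2 had the larger share in DG, with 49.9% ± 4.95 (n = 4) against 39.2% ± 3.14 (n = 2) in Synpo+/+ controls and 50.1% ± 2.96 (n = 7) against 43.4% ± 5.12 (n = 6) in Synpo-/- controls. Shares sum to 100 in a library, so a lower Grik4 share raises the others without a change of their own levels.

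The first comparison asked which subunits differ between DG and CA3. Grik4, a subunit known from CA3 pyramidal cells, was about 2-fold lower in DG than in CA3 in both genotypes. Grik3, which is known from mossy fiber terminals, was higher in DG by 0.58 to 0.73 on the log2 scale and passed the test in 1 of 4 comparisons. Grik1, Grik2 and Grik5 passed the test in none of the 4 in the main fits.

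Grik4 (ENSMUSG00000032017.14) lies on the minus strand of chromosome 9 (GRCm38, chr9:42518135-42944493), with 5.96 kb of exon in 21 merged exons, of which 59 bases are shared with Gm24420 on the same strand. In Synpo+/+ DG control its level was 8.05, 10.5, 12.6 and 10.1 normalized CPM, and in Synpo+/+ CA3 control it was 18.9 and 22.0. In Synpo+/+ DG ECL it ranged from 7.66 to 28.1 (median 11.3), and in Synpo+/+ CA3 ECL it was 27.2, 25.7 and 24.9. In Synpo-/- DG control it ranged from 6.86 to 12.0 (median 10.8), against 15.5 to 28.9 (median 22.8) in Synpo-/- CA3 control. Of all 22 DG libraries, 21 lay below the lowest CA3 library. In Synpo-/- DG ECL the level was 9.51, 9.69, 10.996 and 10.6, and in Synpo-/- CA3 ECL it ranged from 20.1 to 24.8 (median 20.9). The only DG library among the CA3 values was Synpo+/+ DG ECL replicate 5 at 28.1, the library with CA3-like Prox1.

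The log2 fold change of Grik4 in DG against CA3 was -0.97 ± 0.19 (SE) in Synpo+/+ control (edgeR quasi-likelihood test, Benjamini-Hochberg adjusted p = 0.00681). It was -1.06 ± 0.14 in Synpo-/- control (adjusted p = 1.53e-05, edgeR) and -1.07 ± 0.11 in Synpo-/- ECL (adjusted p = 1.36e-05, edgeR). In Synpo+/+ ECL the estimate of -0.93 ± 0.28 missed the threshold of 0.05 (adjusted p = 0.0894, edgeR). Without DG replicate 5 it was -1.25 ± 0.14 (adjusted p = 6.18e-06, edgeR). The Synpo+/+ control call rested on 2 CA3 libraries, and without CA3 replicate 2 the estimate was -0.87 (adjusted p = 0.0957, edgeR). Adjusted p-values here and below were taken over all genes tested in a comparison.

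Among the CA3 libraries, the lowest Grik4 value belonged to Synpo-/- CA3 control replicate 1 (15.5), the library in which Prox1 stood at 44.0. Without it the Synpo-/- control difference was -1.16 ± 0.13 for Grik4 (adjusted p = 2.45e-06, edgeR) and 0.54 for Grik3 (adjusted p = 0.00724, edgeR). Ordered by mean level, the 4 CA3 groups (20.5 to 25.9) stood above the 4 DG groups (10.2 to 13.05). The gap of 7.40 normalized CPM between the lowest CA3 and the highest DG mean was larger than the SD of either group. Neighbouring groups within a region differed by less than the larger of their SDs.

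Grik3 (ENSMUSG00000001985.9) lies on the plus strand of chromosome 4 (GRCm38, chr4:125490700-125714173), with 8.97 kb of exon in 16 merged exons. Its level in Synpo+/+ DG control was 9.59, 8.72, 6.42 and 5.78 normalized CPM, against 6.31 and 4.01 in Synpo+/+ CA3 control. In Synpo-/- control it ranged from 7.16 to 9.82 (median 8.29) in DG and from 3.26 to 7.79 (median 5.83) in CA3. In Synpo+/+ ECL it ranged from 5.53 to 11.4 (median 7.66) in DG and was 3.90, 6.07 and 5.00 in CA3. In Synpo-/- ECL it was 8.90, 4.90, 8.91 and 5.39 in DG and 3.35 to 6.17 (median 4.54) in CA3. The ranges of DG and CA3 overlapped in each of the 4 settings, in Synpo+/+ ECL through DG replicate 5 alone (the other 6 started at 7.40), and 10 of 22 DG libraries exceeded the highest CA3 library.

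The higher Grik3 level in DG passed the test in Synpo-/- control, with a log2 fold change of 0.66 ± 0.16 (adjusted p = 0.00424, edgeR). The estimates were 0.58 ± 0.27 in Synpo+/+ control (adjusted p = 0.290, edgeR), 0.73 ± 0.22 in Synpo+/+ ECL (adjusted p = 0.0911, edgeR) and 0.63 ± 0.21 in Synpo-/- ECL (adjusted p = 0.0670, edgeR). Without DG replicate 5 the Synpo+/+ ECL estimate was 0.78 ± 0.18 and passed (adjusted p = 0.00636, edgeR). The Synpo-/- ECL estimate passed without DG replicate 2 (0.77) or without CA3 replicate 6 (0.73).

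**Figure D2:**
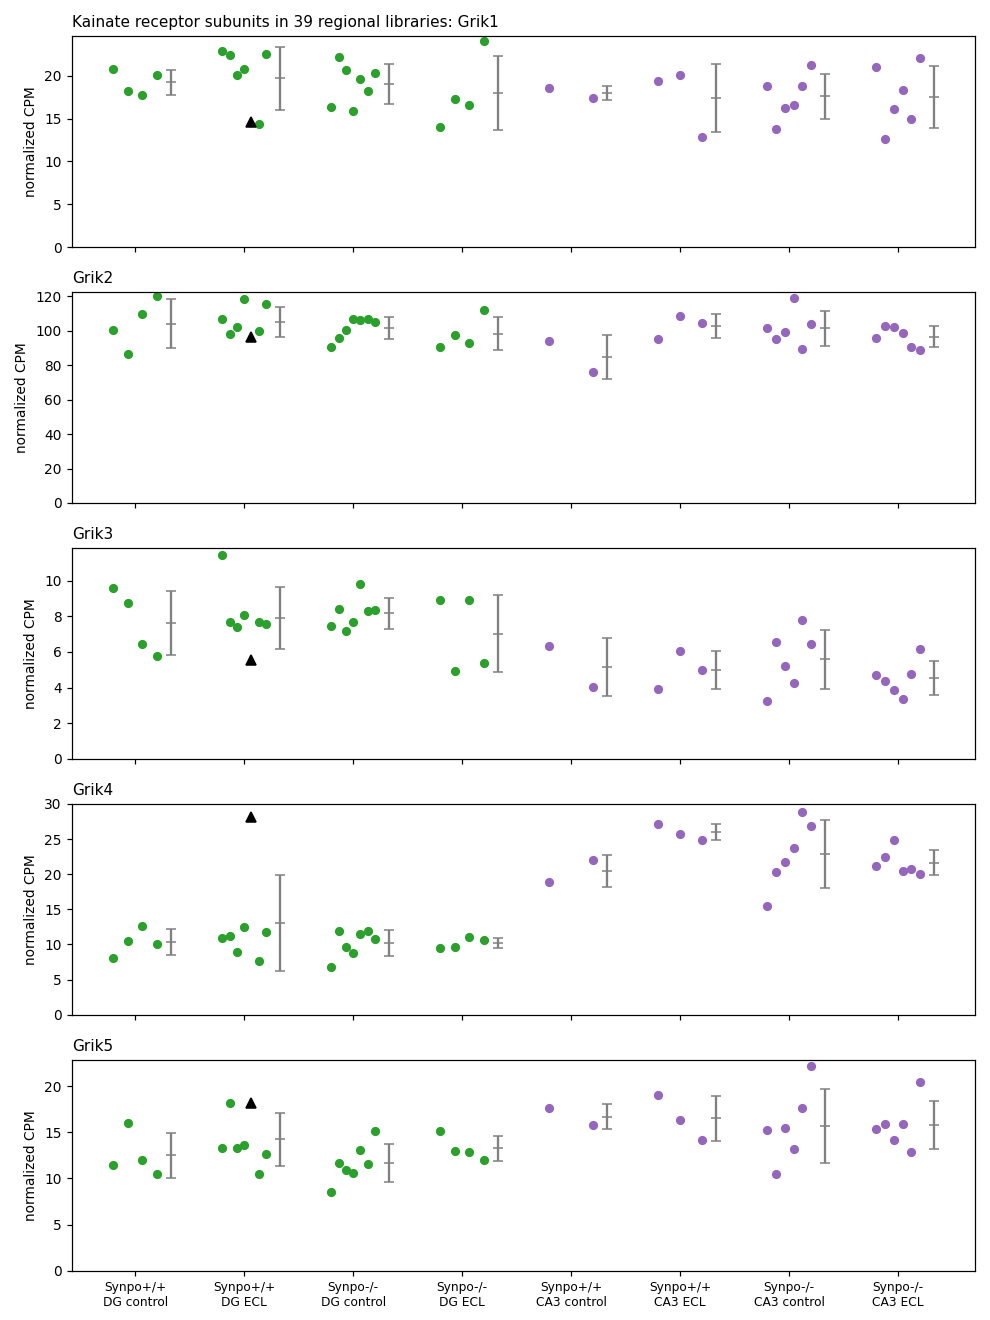
Normalized CPM (y axes, starting at 0) of the 5 subunits in each of the 39 regional libraries, by group (x axis), with DG in green, CA3 in purple and the mean ± SD of a group in gray. The black triangle is Synpo+/+ DG ECL replicate 5, whose Grik4 value of 28.1 lies among the CA3 libraries, while the other 21 DG libraries reach at most 12.6.

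Grik5 (ENSMUSG00000003378.9; GRCm38, chr7:25009849-25072346, minus strand, 5.17 kb of exon), the second high-affinity subunit, had log2 fold changes of -0.41 ± 0.19, -0.15 ± 0.16, -0.33 ± 0.15 and -0.25 ± 0.14 in DG against CA3, in the order Synpo+/+ control, Synpo+/+ ECL, Synpo-/- control and Synpo-/- ECL. None passed (adjusted p = 0.110 to 0.654, edgeR). Grik5 means were 15.7 to 16.7 normalized CPM in the CA3 groups and 11.6 to 14.2 in the DG groups, and no step between neighbouring groups exceeded the larger SD. In Synpo-/- control the estimate passed without CA3 replicate 2 (-0.42, adjusted p = 0.0339, edgeR).

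Grik2 (ENSMUSG00000056073.16; GRCm38, chr10:49094833-49788766, minus strand, 13.25 kb of exon) encodes GluK2, a main subunit of kainate receptors at both granule cells and CA3 pyramidal cells. Its group means lay between 84.9 and 105 normalized CPM, and its log2 fold changes in DG against CA3 between 0.03 and 0.31. Grik1 (ENSMUSG00000022935.16; GRCm38, chr16:87895900-88290265, minus strand, 6.72 kb of exon), whose product is best known from hippocampal interneurons, had group means of 17.4 to 19.7 normalized CPM and log2 fold changes of 0.05 to 0.24. The widest 95% intervals of these differences ran from -0.03 to 0.65 for Grik2 and from -0.17 to 0.66 for Grik1. With a replicate block, Grik1 passed as higher in DG in Synpo+/+ ECL (adjusted p = 0.0406, edgeR). Of the 6 interneuron markers, 2, 0, 4 and 2 passed the test as higher in DG in the 4 comparisons in the above order and none as lower, and their summed level in controls was 761 to 1314 normalized CPM in DG and 589 to 840 in CA3.

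Counts of members called are to be read against all genes. Of the 5 members, 1 was called in Synpo+/+ control, where 5.39% of all genes tested were called, and 0 in Synpo+/+ ECL, where 2.05% were. In Synpo+/+ ECL 2 members had an unadjusted p under 0.05, as had 4698 of 24029 genes tested. DESeq2 called 2 members and 1518 genes there. Without DG replicate 5, 2 members and 19.8% of genes were called. In Synpo-/- control 2 members and 25.5% of genes were called, and in Synpo-/- ECL 1 member and 13.6%. The median log2 fold change over the 5 members was 0.03 to 0.11 and that over all genes tested 0.02 to 0.06. Markers of other cells moved with the region as well. In Synpo-/- control, 4 of 4 oligodendrocyte markers were lower in DG (summed level 399 to 1161 normalized CPM against 1373 to 2201 in CA3) and 2 of 4 pan-neuronal markers were lower (3185 to 4932 against 6397 to 8182). In Synpo-/- ECL, where Grik4 was called too, 0 of 4 oligodendrocyte markers were called and 2 of 4 pan-neuronal markers were lower. There 4 of 4 astrocyte markers (4683 to 6109 in DG and 2861 to 4116 in CA3) and 3 of 6 microglia markers (423 to 518 and 214 to 348) were higher in DG. No marker of these lists was at 0 in a group, and their part in the Grik4 and Grik3 differences was not tested.

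**Figure D3:**
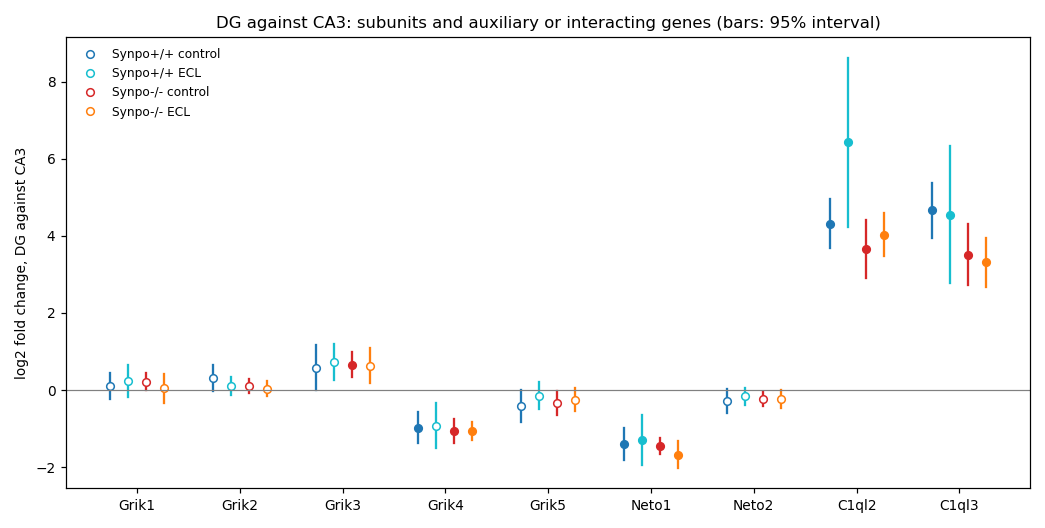
Log2 fold change in DG against CA3 (y axis) for the 5 subunits and 4 partner genes (x axis) in the 4 combinations of genotype and lesion; bars are 95% intervals and filled circles mark an adjusted p under 0.05. Grik4 and Neto1 lie below 0 and C1ql2 and C1ql3 above 0 in each of the 4 combinations.

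Since Grik3 and Grik4 moved in opposite directions, their ratio within a library was examined, which needs no scaling between libraries. The pair was chosen after its values were seen, and the adjustment over 7 ratio comparisons does not cover that choice. The p-values of this ratio therefore add no support to the fits above. The log2 ratio of Grik3 to Grik4 counts was -0.45 ± 0.56 (SD, n = 4) in Synpo+/+ DG control and -2.02 ± 0.62 (n = 2) in Synpo+/+ CA3 control. The groups did not overlap, but 4 against 2 libraries cannot give a p below 0.133 (two-sided exact permutation test, p = 0.133). In Synpo-/- control the ratio was -0.30 ± 0.23 (n = 7) in DG and -2.07 ± 0.29 (n = 6) in CA3, again without overlap (exact permutation test, p = 0.00117, adjusted over 7 ratio comparisons p = 0.00816). In Synpo-/- ECL it was -0.59 ± 0.46 (n = 4) and -2.27 ± 0.36 (n = 6) (exact permutation test, p = 0.00952, adjusted p = 0.0167). In Synpo+/+ ECL the groups overlapped through DG replicate 5, at -0.63 ± 0.81 (n = 7) and -2.40 ± 0.37 (n = 3) (exact permutation test, p = 0.0500, adjusted p = 0.0700). Without it the DG value was -0.34 ± 0.32 (n = 6), without overlap (exact permutation test, p = 0.0238, the smallest that 6 against 3 can give).

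The sequences just upstream of the genes' starts are shown because Grik3 and Grik4 moved in opposite directions between the regions. They are 120 bases upstream of both the RefSeq and the GENCODE start, read 5′ to 3′ on the strand of the gene from RefSeq sequence (GRCm38.p6). Capitals mark the GC box GGGCGG or its complement CCGCCC, a binding motif of Sp family factors.
Grik3, chr4:125490576-125490695, plus strand: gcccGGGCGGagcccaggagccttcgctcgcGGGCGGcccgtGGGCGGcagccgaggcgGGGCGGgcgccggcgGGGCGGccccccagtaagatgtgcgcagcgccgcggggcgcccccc
Grik4, chr9:42944494-42944613, minus strand: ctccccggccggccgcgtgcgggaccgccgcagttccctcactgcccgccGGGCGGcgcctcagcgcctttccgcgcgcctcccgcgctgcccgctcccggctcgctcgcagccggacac
The Grik3 window held 5 matches to this motif and the Grik4 window 1. Of 32851 RefSeq promoters, 26.5% held at least 1 match in the window placed as for Grik3 and 13.3% in the window placed as for Grik4. The E-box CANNTG, a motif of basic helix-loop-helix factors that reads the same on both strands, was in neither window, against 40.2% and 41.9% of all promoters. The windows were 85.8% and 81.7% GC, with medians of 54.2% and 50.8% over all promoters. A match in such a window is a description of its letters and was not tied to binding. The promoter table held 4 of the 5 members, without Grik1.

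The partner list held 14 genes of kainate receptor assembly and placement, of which 13 were in the tables (Klhl17 was not analysed here). Neto1 encodes an auxiliary subunit of kainate receptors. Its level in controls was 103.6 to 192.8 normalized CPM in DG and 322 to 467 in CA3, and its log2 fold change in DG was -1.39 ± 0.19, -1.29 ± 0.30, -1.45 ± 0.10 and -1.68 ± 0.16 in the order used above (adjusted p at most 0.0443, edgeR). C1ql2 and C1ql3 encode secreted proteins of mossy fiber terminals that bind kainate receptors and neurexin 3. In controls C1ql2 was at 17.5 to 32.6 normalized CPM in DG and at 0.561 to 6.27 in CA3, the highest CA3 value belonging to Synpo-/- replicate 1. Its log2 fold change was 4.32 ± 0.30 in Synpo+/+ control and 3.67 ± 0.36 in Synpo-/- control, or 4.48 ± 0.20 in the latter without CA3 replicate 1.

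C1ql3 rose in DG as well, by 4.66 ± 0.33 and 3.51 ± 0.38 on the log2 scale in the same comparisons. Without Synpo-/- CA3 replicate 1, where C1ql3 was at 7.20 normalized CPM against 0.888 to 1.24 in the other 5 libraries, the latter was 4.47 ± 0.16. Of its exon bases, 61% are shared with an antisense gene, and reads were counted without strand. Dlg1, a scaffold protein, was higher in DG in 3 of 4 comparisons and Nrxn3 (neurexin 3) lower in 3 of 4. Neto2, the other auxiliary subunit, did not pass the test in any of the 4. Over the 13 partners, 3 rose and 2 fell in Synpo+/+ control, 2 and 1 in Synpo+/+ ECL, 3 and 4 in Synpo-/- control and 3 and 3 in Synpo-/- ECL, beside the shares of all genes called of 5.39%, 2.05%, 25.5% and 13.6%. Without DG replicate 5, 3 rose and 4 fell in Synpo+/+ ECL beside 19.8% of genes, and Dlg1 (0.66) and Nrxn3 (-0.43) were among them. In Synpo+/+ DG ECL replicate 5, Neto1 was at 431 and C1ql2 at 0.585 normalized CPM, as in CA3 libraries.

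Likeness of pattern was measured as Pearson's r of log2 CPM over the 39 regional libraries, among 11509 genes, as a description in which the points share region, culture and depth. Grik4 was most like Prkca (r = 0.960), Spock1 (0.956) and Hapln4 (0.953), and for Prkca, a protein kinase C, r was 0.895 within the 22 DG and 0.715 within the 17 CA3 libraries. The DG value includes replicate 5 of Synpo+/+ DG ECL. Grik3 was most like Kcnn3 (0.823), Igsf9b (0.808) and Ldb2 (0.796). Among the 3 genes most like Grik1 were Nr2f2 (0.750) and Unc5d (0.724). Grik2 was most like Cdh9, Plppr1 and A830036E02Rik (0.706 to 0.689), and Grik5 most like Basp1, Got2 and Slc45a4 (0.832 to 0.828).

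The second comparison asked whether denervation changed the subunits. No member passed the test after ECL in any of 6 comparisons, and 0 of these 30 values had an unadjusted p under 0.05 (lowest adjusted p = 0.318, edgeR). DESeq2 called 0 of the 30 as well. In Synpo+/+ DG, where 12.2% of genes tested were called, Grik4 was at 10.3 ± 1.87 normalized CPM (SD, n = 4) in control and at 13.05 ± 6.87 (n = 7) after ECL, or at 10.5 ± 1.84 (n = 6) without replicate 5. Its log2 fold change was 0.31 ± 0.27, and -0.01 ± 0.16 without that library. The other 4 members had values between -0.01 and 0.17 there. Removing the trends of gene length and GC content between libraries gave 1 call in these comparisons, Grik2 in Synpo+/+ DG with a log2 fold change of 0.37 (adjusted p = 0.0425, edgeR), where the main estimate was -0.01 ± 0.11.

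In Synpo+/+ CA3, 1.78% of genes were called and the members lay between -0.15 and 0.24. In Synpo-/- DG, 8.53% were called and the largest member value was a log2 fold change of -0.26 ± 0.17 for Grik3. In Synpo-/- CA3, 0.0770% were called and Grik3 was at -0.27 ± 0.20. Of the 13 partners, Dlg1 passed in Synpo-/- DG, lower after ECL (-0.73), and no other partner passed in the 6 comparisons. Without replicate 5 of Synpo+/+ DG ECL, Dlg1 (-0.41) and C1ql2 (0.47) passed in Synpo+/+ DG, where 13.8% of genes were then called. In whole-culture input 5.61% of genes were called after ECL and in coIP 0.314%, and the members' log2 fold changes lay between -0.15 and 0.21 in input and between -0.02 and 0.19 in coIP. In Synpo+/+ DG 6 of 6 microglia markers rose after ECL (summed level 156 to 222 normalized CPM in control and 386 to 456 after ECL) and 3 of 4 astrocyte markers rose (2479.9 to 2891 and 4221 to 5547). Their part in the subunits' values was not tested. Over all 6 lesion comparisons the 95% intervals of the members reached from -0.77 to 0.89 on the log2 scale. These are the extremes of 30 separate intervals and not a joint bound on undetected changes.

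**Figure D4:**
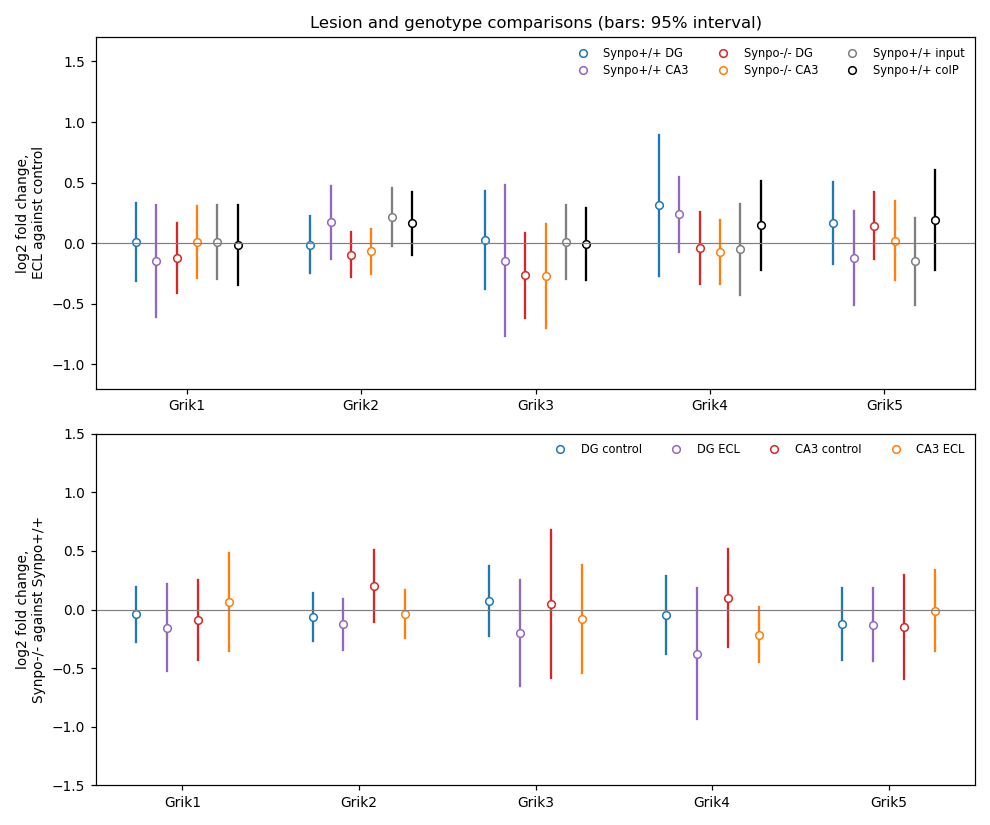
Log2 fold changes (y axes) of the 5 subunits (x axes) after ECL against control in 6 settings (top) and in Synpo-/- against Synpo+/+ in 4 settings (bottom), with 95% intervals as bars. Each circle is open, since no value passed an adjusted p of 0.05, and each interval includes 0.

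The third comparison asked whether the subunits depended on synaptopodin. In none of the 4 comparisons of Synpo-/- with Synpo+/+ was a member called, with 0 of 20 values at an unadjusted p under 0.05 (lowest adjusted p = 0.496, edgeR) and 0 called by DESeq2. The shares of genes called by edgeR were 0.0166% in DG control, 0.0166% in DG ECL, 0.00413% in CA3 control and 0.00891% in CA3 ECL, which is 4, 4, 1 and 2 genes. DESeq2 called 235, 11, 700 and 21 genes in these comparisons, none of them a member. The member values were small in DG control, from -0.13 for Grik5 to 0.07 for Grik3. The largest difference was that of Grik4 in DG ECL, -0.38 ± 0.26 (95% interval -0.93 to 0.18), and without replicate 5 it was -0.07 ± 0.14.

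Differences between differences were tested too. The region by genotype interaction in controls called 0 members and 0% of genes (edgeR, with 1237 of 28235 genes at an unadjusted p under 0.05 and 0 called by DESeq2). The interaction of genotype and lesion called 0 members in DG, where 0.00381% of genes were called, and 0 in CA3, where 0% were (edgeR, with 4589 of 26821 genes at an unadjusted p under 0.05 and 313 called by DESeq2). For Grik4 the region by genotype term was -0.17 ± 0.27 (95% interval -0.72 to 0.38), which is the extent to which its regional difference could differ between genotypes. No member passed in the 5 interactions tested (25 values, lowest adjusted p = 0.411, edgeR), 0 had an unadjusted p under 0.05 and DESeq2 called 0.

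The last comparison asked which subunit transcripts were higher in the anti-synaptopodin precipitate than in its input. In Synpo+/+ cultures all 5 members were called higher in coIP, with Grik5 and Grik3 ahead of the others. So were 5389 of 18222 genes tested in control and 5557 of 18229 after ECL. With the trend of gene length removed, Grik2 was at -0.09 and -0.20 and no longer called in control and ECL, and Grik1 was no longer called in ECL. The same direction held in the Synpo-/- precipitate, where Grik5, Grik3 and Grik2 were called, beside 3138 of 20892 genes called higher. In that control the antibody's target is absent by label, and no member's enrichment differed between genotypes by the interaction test.

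Grik5 was at 5.56, 6.38, 6.42, 6.58 and 6.58 normalized CPM in the 5 Synpo+/+ control inputs and at 14.01, 15.2, 18.2, 18.4 and 17.5 in the coIP of the same lysates. The log2 fold change was 1.42 ± 0.12 (adjusted p = 6.36e-07, edgeR), or 2.68-fold. After ECL it was at 6.89, 5.50, 3.64, 5.67 and 6.76 in input and at 10.95, 18.7, 16.8, 24.3 and 23.5 in coIP, with a log2 fold change of 1.74 ± 0.23 (adjusted p = 2.43e-05, edgeR). In Synpo-/- it was at 8.54 and 8.48 in input and at 26.3 and 24.2 in coIP, with a log2 fold change of 1.53 ± 0.17 (adjusted p = 0.000206, edgeR). Input and coIP did not overlap in any of the 3 settings, in Synpo-/- with only 2 libraries per fraction. How many of all genes separate likewise was not counted, while 55.0%, 58.3% and 31.4% of genes were called in the 3 settings.

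Grik3 was at 9.47, 11.2, 12.4, 12.4 and 13.4 normalized CPM in Synpo+/+ control input and at 20.3, 23.4, 25.2, 29.1 and 26.6 in coIP. The log2 fold change was 1.10 ± 0.13 (adjusted p = 5.44e-06, edgeR). In the lesioned lysates it was 1.07 ± 0.15 (adjusted p = 4.55e-05, edgeR), with input at 9.56 to 15.5 and coIP at 20.4 to 29.2. In Synpo-/- it was 0.74 ± 0.18 (adjusted p = 0.00993, edgeR), from 10.5 and 13.9 in input to 20.2 and 21.4 in coIP. Again the values did not overlap in any setting, with the same limits as for Grik5.

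**Figure D5:**
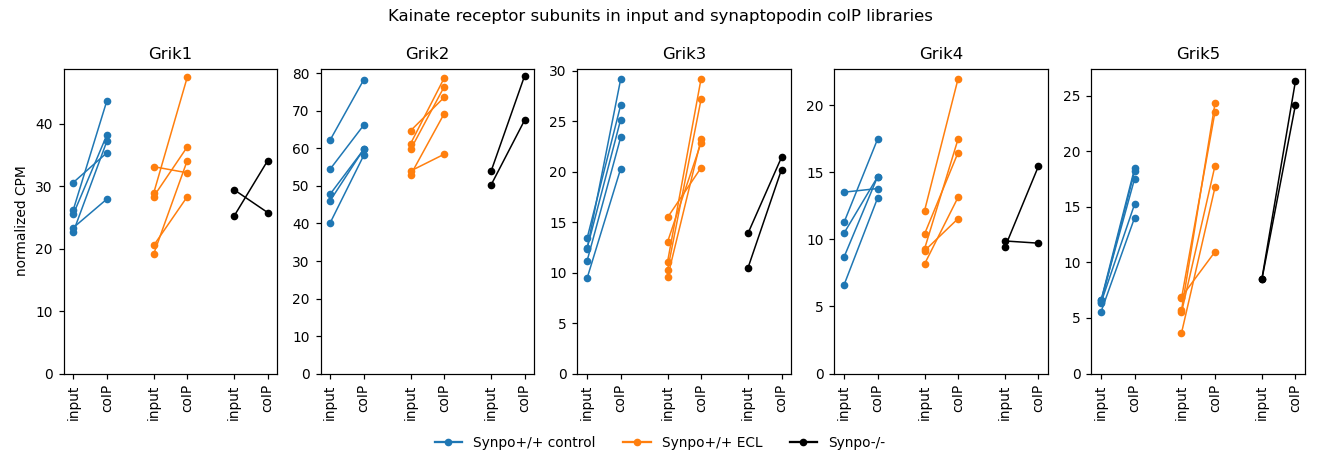
Normalized CPM (y axes, starting at 0) of the 5 subunits in input and coIP (x axes), with lines joining the 2 fractions of the same lysate number for 5 Synpo+/+ control, 5 Synpo+/+ ECL and 2 Synpo-/- lysates, the last joined by the sample names, whose numbers cross with the biological replicate numbers. For Grik5 and Grik3 the lowest coIP value lies above the highest input value in each of the 3 settings, while input and coIP values of Grik1, Grik2 and Grik4 overlap in Synpo+/+ control. How many of all genes separate likewise was not counted.

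The other 3 members had smaller differences. Grik4 was at 6.62, 8.70, 11.3, 10.5 and 13.5 normalized CPM in Synpo+/+ control input and at 13.1, 14.7, 17.5, 14.7 and 13.8 in coIP, a log2 fold change of 0.56 ± 0.17 (adjusted p = 0.0108, edgeR). Grik1 was higher by 0.52 ± 0.12 (adjusted p = 0.00212, edgeR) and Grik2 by 0.38 ± 0.12 (adjusted p = 0.0171, edgeR). Input and coIP values overlapped for each of these 3. After ECL the log2 fold changes were 0.74 ± 0.18 for Grik4, 0.48 ± 0.17 for Grik1 and 0.31 ± 0.11 for Grik2 (adjusted p = 0.00297, 0.0248 and 0.0232, edgeR). In Synpo-/-, Grik2 passed at 0.46 ± 0.14 (adjusted p = 0.0264, edgeR), while Grik4 at 0.35 ± 0.23 (95% interval -0.14 to 0.84) and Grik1 at 0.10 ± 0.17 (-0.27 to 0.47) did not.

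Much of the transcriptome differed between coIP and input. In Synpo+/+ control 5 of 5 members and 55.0% of genes tested were called, with 5389 of 18222 genes called as higher in coIP. In Synpo+/+ ECL 5 of 5 members and 58.3% of genes were called, with 5557 of 18229 genes higher. In Synpo-/- 3 of 5 members and 31.4% of genes were called, with 3138 of 20892 genes higher. The median log2 fold change over the members was 0.56, 0.74 and 0.46 in the 3 settings, and that over all genes 0.04, 0.02 and 0.02.

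The differences ran with gene length. In Synpo+/+ control the median log2 fold change was -0.38 over the fifth of genes with the shortest exon length (up to 1.94 kb) and 0.40 over the fifth with the longest (above 6.98 kb). Grik2 and Grik3, with 13.25 and 8.97 kb, belong to the latter. With the length trend between libraries removed, the log2 fold change of Grik2 was -0.09 in Synpo+/+ control (adjusted p = 0.520, edgeR), -0.20 in Synpo+/+ ECL and 0.14 in Synpo-/-, and passed in none. Grik5 was then at 1.35, 1.71 and 1.52 and Grik3 at 0.80, 0.76 and 0.54, and both passed in each of the 3 settings. With the GC trend removed as well, Grik5 was at 0.86, 1.14 and 1.20 and Grik3 at 0.62, 0.57 and 0.47. The last of these, in Synpo-/-, no longer passed (adjusted p = 0.0751, edgeR).

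Of the calls with a smaller difference, Grik1 in Synpo+/+ ECL was lost with the length trend removed (0.32, adjusted p = 0.114, edgeR) and Grik4 in Synpo+/+ control with both trends removed (0.37, adjusted p = 0.0586, edgeR). Leaving out 1 library at a time also ended calls with a smaller difference. In Synpo+/+ ECL, Grik1 missed the threshold without input replicate 2 (0.38), input replicate 5 (0.40) or coIP replicate 4 (0.35), and Grik2 without input replicate 1 (0.26), input replicate 5 (0.27), coIP replicate 2 (0.27) or coIP replicate 3 (0.29). In Synpo+/+ control, Grik2 missed it without input replicate 5 (0.33). In Synpo-/-, Grik2 missed it without either input (0.42 and 0.52) or without coIP replicate 2 (0.34), Grik3 missed it without input replicate 1 (0.56, adjusted p = 0.0908, edgeR), and Grik4 passed without coIP replicate 1 (0.64, adjusted p = 0.0321, edgeR). Grik5 passed in each of these fits. Where a fraction was left with 1 library, that library was taken to vary like the other fraction.

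The ratio of Grik5 to Grik2 within a library was again examined after the values were seen. Its p-values do not cover that choice and add no support to the fits above. Its log2 value was -2.98 ± 0.19 (SD, n = 5) in Synpo+/+ control input and -1.95 ± 0.14 (n = 5) in coIP, without overlap (two-sided exact permutation test, p = 0.00794, the smallest that 5 against 5 can give, adjusted p = 0.0167). That test takes the libraries as independent. Input and coIP of a lysate are paired, and the ratio was higher in coIP in 5 of 5 pairs, where an exact paired test cannot go below 0.0625 and thus misses 0.05 (p = 0.0625, chosen after the data were seen). After ECL it was -3.39 ± 0.48 (n = 5) and -1.97 ± 0.50 (n = 5) with the same exact p in both tests. In Synpo-/- it was -2.61 ± 0.08 (n = 2) and -1.54 ± 0.25 (n = 2), where the exact permutation test cannot go below 0.333. Per kb of exon, Grik5 took 10.4% ± 0.85 (n = 5) of the 5-subunit total in Synpo+/+ control input and 17.2% ± 1.09 (n = 5) in coIP. In Synpo-/- it took 13.04% ± 0.019 (n = 2) and 25.5% ± 4.14 (n = 2).

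The genotype by fraction interaction compares the coIP enrichment of the 2 Synpo-/- lysates, of unlabelled lesion state, with that of the 5 Synpo+/+ control lysates. The interaction called 0 members and 0% of genes (edgeR, with 1511 of 20621 genes at an unadjusted p under 0.05 and 50 called by DESeq2). For Grik5 it was 0.16 ± 0.20 (95% interval -0.26 to 0.59), for Grik3 -0.31 ± 0.23 (-0.80 to 0.17) and for Grik1 -0.37 ± 0.23 (-0.86 to 0.11). A lower enrichment of Grik3 in Synpo-/- by up to 0.80 therefore could not be told from none with 2 lysates. The lesion by fraction interaction in Synpo+/+ called 0 members and 0% of genes (edgeR, with 434 of 19581 genes at an unadjusted p under 0.05 and 0 called by DESeq2). Its largest member value was 0.36 ± 0.26 for Grik5.

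Partner genes passed as higher in coIP as well, namely 6 in Synpo+/+ control, 7 in Synpo+/+ ECL and 6 in Synpo-/-, where 5389 of 18222, 5557 of 18229 and 3138 of 20892 genes did. Partners that passed as lower are not given here. Grip1 and Dlg4, PDZ scaffold proteins of the postsynaptic density, Nrxn3, Cdh2 (N-cadherin) and Adarb1, the enzyme that edits kainate receptor transcripts, passed as higher in each of the 3 settings. In Synpo+/+ control their log2 fold changes were 0.58, 0.67, 0.81, 0.67 and 0.81. With 8.78, 13.25, 12.68, 8.07 and 11.27 kb of exon they belong to the fifth of longest genes, whose median there was 0.40. Their values with the length trend removed are not given here. Dlg1 and Pick1 passed in Synpo+/+ ECL (0.70 and 0.37), C1ql3 in Synpo+/+ control (0.48) and C1ql2 in Synpo-/- (0.82). Neto1, Neto2 and Kif17 were not called in any of the 3.

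Markers of other cell types differed between fractions as well. Of 6 microglia markers, 2, 5 and 4 were lower in coIP in Synpo+/+ control, Synpo+/+ ECL and Synpo-/-, with a summed level of 219 to 474 normalized CPM in Synpo+/+ control input and 182 to 372 in coIP. Of 6 interneuron markers, 3 were lower and 1 higher in coIP in Synpo+/+ control (1066 to 2178 in input and 731 to 1577 in coIP). Of the 3 CA1 markers, 2 were higher (37.0 to 57.7 and 59.6 to 95.6). No gene of these lists was at 0 in a group, and their part in the coIP differences of the subunits was not tested.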

How the data were processed

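RNA-seq counts from 63 mouse libraries were used, 39 of the regional and 24 of the coIP experiment. The deposited values are raw counts per gene symbol: the authors trimmed reads with cutadapt (version 3.5 in the submitters' processing notes), mapped them with STAR (2.7.8a) to mm10 and counted them without strand with featureCounts (2.0.1). Columns of the deposited annotation gave positions and exon lengths (GRCm38), a value of another kind than the counts.

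Tests were edgeR 4.0.16 quasi-likelihood fits with TMM scaling and filterByExpr, on the groups of each comparison, in R 4.3.3, with Benjamini-Hochberg adjustment over all genes tested and a threshold of 0.05. The pipeline was tested on simulated data. Each regional library is 1 area of 1 culture. Whether a DG and a CA3 library share a culture, or cultures share an animal, is not stated. The tests took the regional libraries as independent. The coIP and input libraries come from 12 pools of 5 or 6 cultures, each giving 1 of either, and the tests took them as independent. P-values measure the spread between these. Libraries carry no molecular identifiers, and the spread was therefore taken from replicates. Intervals are 95% from the fits. Log2 CPM for likeness used a prior count of 2 and genes with a mean CPM of at least 5.

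Input and coIP of 1 lysate share a number. In Synpo+/+ their deviations correlated in 10 of 10 pairs (r = 0.104 to 0.444), and the methods describe the input as an aliquot of the lysate, so the numbers pair them. In Synpo-/- r was 0.0459, and the labels carry 2 numberings that cross, so which fractions belong together is uncertain.

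The members and the lists of partners and markers were chosen with earlier results of these data known. Named were the members, partners called in at least 3 of 4 regional comparisons or in a coIP comparison, and the 3 genes most like each member. Of these, 2 genes are not reported here. Alternatives were DESeq2 1.42.0, RLE size factors, no filter, all groups in 1 fit, length and GC trends removed, a replicate block, each library left out, and a mean normalized count above 300.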

Additional observations from a re-analysis of the deposited data

Results flagged for a closer look

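Each member's level was examined for a library far from the rest of its group, in 50 combinations of member and group, where chance alone sets apart about 1 in 20, and 2 libraries stood apart. The Grik4 level of Synpo+/+ DG ECL replicate 5 was 28.1 normalized CPM, against 7.66 to 12.5 in the other 6 libraries of its group. Prox1, Neto1 and C1ql2 of the same library also had values in the range of CA3 libraries. The Grik5 level of Synpo+/+ control input replicate 1 was 5.56, against 6.38 to 6.58 in the other 4.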

How the results depend on the processing

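Over 110 pairs of member and comparison, 2115 values under other settings were computed. Of these, 1875 kept their direction and their side of the threshold, 194 changed sign with neither value called, 20 lost and 20 gained a call, and 6 called values, or values then called, changed sign. The 6 were all Grik2 with gene trends removed. In coIP against input they were -0.092 (length) and -0.018 (length and GC) in Synpo+/+ control, -0.20 and -0.16 in Synpo+/+ ECL and -0.14 (length and GC) in Synpo-/-. After ECL in Synpo+/+ DG the value was 0.37 (length and GC), the 1 call among 525 lesion values. Among 355 genotype and 650 interaction values 0 were called.

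DESeq2 called 1518 of 24029 genes in DG against CA3 of Synpo+/+ ECL and 3915 of 22767 in Synpo-/- ECL. For most other settings the numbers of all genes called are not given, so the counts below cannot be read against them. Members called of 5 moved as follows. In DG against CA3 of Synpo+/+ ECL (0 called), DESeq2 gave 2, no low-count filter 1, all groups in 1 fit 1, length and GC trends removed 1, and leaving out 1 library 0 to 2, the 2 without DG replicate 5. In Synpo-/- ECL (1 called), DESeq2, no filter and all groups in 1 fit each gave 2, and leaving out 1 library 1 to 2. In Synpo+/+ control (1 called) leaving out 1 library gave 0 to 1, with 0 without CA3 replicate 2. In Synpo-/- control (2 called) all groups in 1 fit gave 3, with Grik5 at -0.43, as did leaving out CA3 replicate 2. Calls were also limited to genes with a mean normalized count above 300. This left 0 in Synpo+/+ control, where Grik4 had 268, and 1 in Synpo-/- control, where Grik3 had 149. In coIP of Synpo+/+ ECL (5 called) 3 were called with the length trend removed, 4 with no filter (without Grik2, 0.27) and 3 to 5 with 1 library left out, in Synpo+/+ control (5 called) 3 with both trends removed, and in Synpo-/- (3 called) 1 with both trends removed and 1 to 4 with 1 library left out. The cause of these moves was not tested, apart from the smaller number of samples or genes.

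The numbers of the regional libraries were not used as pairs in the main fits, since not every pair's deviations correlated. This check cannot exclude pairs. In Synpo-/- control, DG and CA3 of the same number had r = -0.0119 to 0.535, above 0.1 in 3 of 6. A replicate block gave 3 members called in DG against CA3 of Synpo+/+ ECL, namely Grik1, Grik3 and Grik4. It gave 2 in Synpo-/- ECL, and 3 in Synpo-/- control with Grik5 at -0.38. In coIP against input the block left 5, 5 and 3 members called. The numbers of all genes called with the block are not given, so these counts cannot be read against them. Depth limits Grik3 most in regional libraries (as few as 67 counts) and Grik5 most in input (70).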
